A study of Mus musculus with 30 samples.

Results

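Collagens are the matrix proteins that carry tissue mechanically and line the base of epithelia and vessels, and their genes were followed here through duodenum and liver of mice on 3 diets. Genes were taken by name, Col followed by a type number, the letter a and a chain number, if their counts summed to at least 50 over the 30 libraries. Of 44 genes with such a name, 35 reached that sum, out of 47069 genes listed and 17679 with a sum of at least 50. The 35 fell into 9 fibrillar genes, 6 type IV genes of basement membranes, 6 type VI genes of beaded filaments, 6 fibril-associated genes, 3 transmembrane genes, 2 multiplexins, 2 network-forming genes and the anchoring fibril gene Col7a1. Just inside the minimum were Col9a2 with a summed count of 89 and Col24a1 with 95, and just outside were Col17a1 with 48 and Col22a1 with 43.

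The mice were C57BL/6, and the labels name no transgene, deletion or drug and give no age and no time on diet. Each tissue was sampled after a fructose, a dextrose (glucose) or a corn starch control diet, with 5 libraries for each of the 6 groups. The labels do not say that the 5 come from 5 animals, so p-values measure the spread between these libraries, which may be partly technical. RNA was selected for poly-A tails and sequenced, and library totals ran from 14530137 to 19850935 counts. Collagen genes took 0.00737% to 0.0271% of the counts in duodenum and 0.1002% to 0.198% in liver. The tissue labels matched defining markers: 7 of 8 enterocyte genes were higher in duodenum on the control diet and all 8 hepatocyte genes were lower.

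A collagen molecule is wound from chains of the same or of related genes. Fibrillar collagens (types I, III and V among them) form the banded fibrils of connective tissue, and fibril-associated collagens decorate those fibrils. Type IV collagen forms the sheet of the basement membrane, the multiplexins XV and XVIII lie next to it, and type VII collagen forms the anchoring fibrils that fasten an epithelium to the tissue beneath. In liver, matrix-producing stellate cells and fibroblasts are known to make most fibrillar collagen, while hepatocytes are known to make collagen XVIII, the precursor of endostatin.

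Libraries differed within groups in ways that touch the collagen genes. Liver control 2 and liver dextrose 5 held summed cell cycle markers of 116 and 124 FPKM, against 3.57 to 8.21 in the other liver libraries. FPKM, the level per kilobase of gene and per library total, is the authors' unit. Duodenum control 3 and fructose 3 held 159 and 66.4 FPKM of pancreatic acinar markers, against 7.69 to 12.4 in the other duodenum libraries, and duodenum control 5 held 269 FPKM of hepatocyte markers against 45.4 to 107. Counts of collagen genes past a threshold were also computed without these 5 libraries, which stand apart from the rest. Counts by collagen class and over lists of other genes were not.

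In liver 1 gene outweighed all other collagens. Col18a1 (ENSMUSG00000001435, chromosome 10), whose protein carries endostatin at its end, stood at 299.5, 211, 335, 402 and 204 FPKM in the 5 liver control libraries and at 2.36, 3.73, 3.38, 5.41 and 4.52 FPKM in the 5 duodenum control libraries. The tissues did not overlap in any of the 30 libraries, with 204 FPKM as the lowest liver value and 5.53 FPKM as the highest in duodenum. Col18a1 made up 39.0% to 84.0% of the summed collagen FPKM in liver, with a median of 78.2%, and 4.29% to 10.4% in duodenum. Its diet comparisons did not pass: in liver the fructose against control log2 fold change was 0.18 ± 0.24 (SE, n = 5 against 5, edgeR adjusted p = 0.799).

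After Col18a1 the order by median FPKM over the 15 liver libraries was Col3a1 (12.6), Col5a3 (12.4), Col27a1 (9.61), Col14a1 (8.13), Col4a1 (7.74) and Col4a2 (7.25). In duodenum the order was Col3a1 (9.44), Col1a1 (5.27), Col1a2 (3.93), Col4a2 (3.79), Col18a1 (3.73), Col4a1 (3.63) and Col6a1 (3.28). Neighbours in either order overlapped across libraries, apart from Col18a1 at the head of the liver list. Orders and shares of FPKM rest on the gene lengths implied by the deposited values, such as 1808 bases for Col3a1 and 5023 for Col5a3. By counts the order can differ: in liver fructose 1, Col5a3 had 1271 counts and Col3a1 474. As a share of summed collagen FPKM, fibrillar genes had a median of 41.1% in duodenum and 11.97% in liver. The share of type IV genes had a median of 15.2% in duodenum and 3.94% in liver, and that of type VI genes 15.96% and 1.27%.

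**Figure D1:**
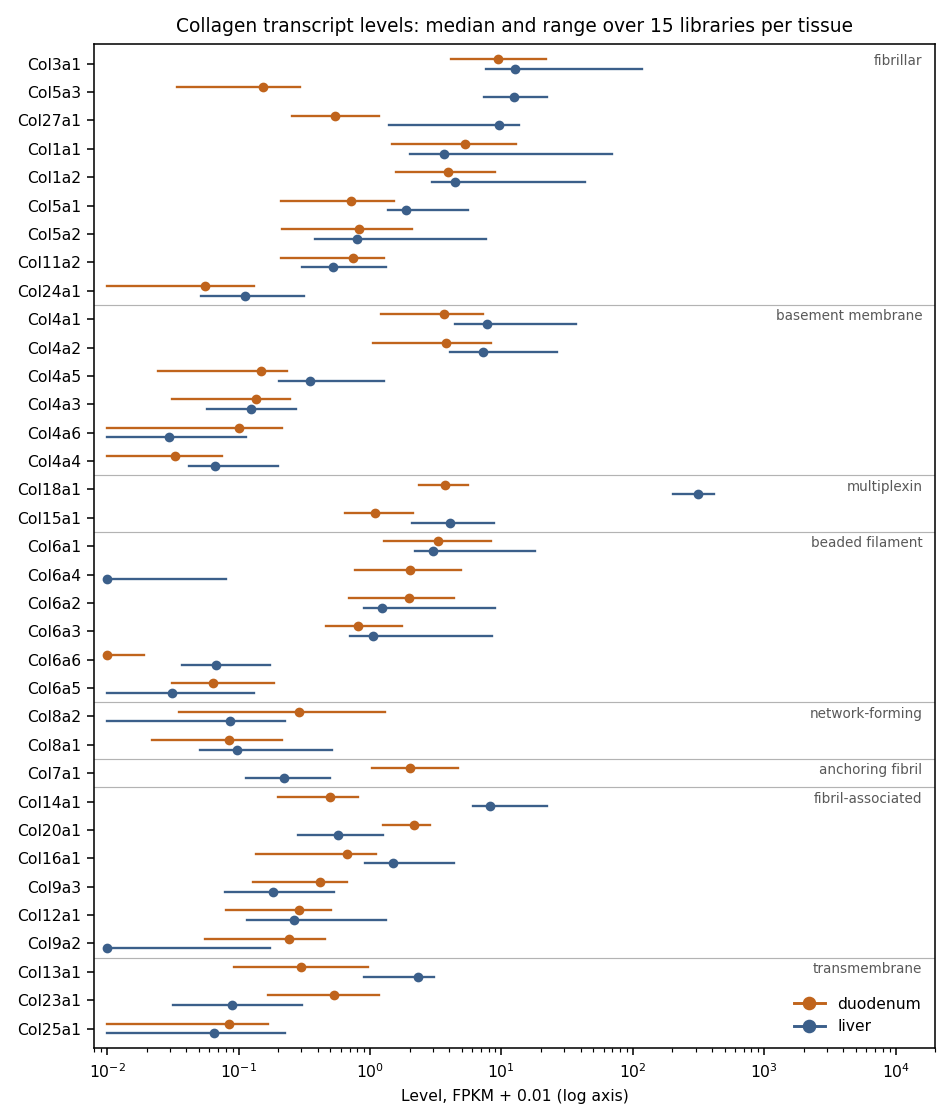
Level of each of the 35 collagen genes, as FPKM plus 0.01 on a log axis, by class. Points are medians and lines the range over 15 libraries of a tissue; Col18a1, Col5a3, Col14a1, Col27a1 and Col6a6, higher in liver, and Col6a4 and Col7a1, higher in duodenum, have ranges that do not meet those of the other tissue.

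Between the tissues on the control diet, 28 of the 35 genes had enough counts to be tested and 20 passed an edgeR adjusted p of 0.05. Of all genes tested 74.6% passed, so the collagens' 71.4% is near the background. Of the 20, 15 were lower in duodenum and 5 were higher, where 37.3% of all genes passed in each direction. The members' median log2 difference, duodenum minus liver, was -1.40, beside -0.0027 for all genes. Without the libraries that stand apart 16 passed, 11 lower and 5 higher, and the members' median was -0.60, beside 72.0% of all genes passing and an all-gene median of 0.01. In a whole tissue, fewer cells of a type and less RNA per cell cannot be told apart.

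Among fibrillar genes 6 of 8 tested were lower in duodenum and none was higher. Col5a3, the third chain gene of collagen V, stood at 13.9, 7.37, 10.2, 10.4 and 11.6 FPKM in liver control libraries and at 0.0249, 0.143, 0.283, 0.165 and 0.216 FPKM in duodenum control libraries. Its duodenum minus liver log2 difference was -6.33 ± 0.37 (SE, edgeR adjusted p = 3.53e-15). Col27a1, a fibrillar collagen best known from cartilage, differed by -4.15 ± 0.50 on the same scale (edgeR adjusted p = 2.73e-08). Col1a1, a chain of collagen I, had a difference of -1.39 ± 0.77 (edgeR adjusted p = 0.106).

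Of the 20 genes that passed, 5 lost the call when 1 library, liver control 2, was left out. With all libraries Col3a1 differed by -1.56 ± 0.63 (edgeR adjusted p = 0.0286), and without liver control 2 by -0.50 (edgeR adjusted p = 0.426). Col1a2 moved in the same step from -1.45 to -0.55 and Col5a2 from -1.40 to -0.43. Col6a3, a chain of collagen VI, moved from -1.41 to -0.44, and Col8a2 from 1.70 to 1.56. None of these 5 passed without that library, Col6a5 did, and 16 collagen genes passed in all. Without duodenum control 1 the count was 16 as well, and Col1a2, Col3a1, Col5a2 and Col6a3 again did not pass. Over all 30 fits that left out 1 library, Col5a2 passed in 14, Col1a2 in 25, Col8a2 in 26 and Col3a1 and Col6a3 in 27 each, and the other 15 genes passed in all 30.

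Of type IV genes all 3 tested were lower in duodenum, with log2 differences of -2.04 ± 0.49 for Col4a1, -1.55 ± 0.41 for Col4a2 and -1.85 ± 0.47 for Col4a5 (SE, edgeR adjusted p from 0.000485 to 0.00121). Col4a1 and Col4a2 encode the chains of the common type IV molecule and start 21 bases apart on opposite strands of chromosome 8. Counts near their shared start cannot be assigned by strand if the counting did not use it, which the sources do not say. Col4a3, Col4a4 and Col4a6, chains known from the kidney's filter and other special membranes, held at most 19 counts in any library and were not tested. Both multiplexins were lower in duodenum, Col15a1 with a log2 difference of -1.79 ± 0.27 (edgeR adjusted p = 9.25e-07) and Col18a1 with -6.57 ± 0.31 (edgeR adjusted p = 1.48e-17).

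Fibril-associated and transmembrane genes went both ways. Col14a1, which binds to collagen I fibrils, ran from 6.33 to 15.8 FPKM in liver control libraries and from 0.280 to 0.792 FPKM in duodenum control libraries, a log2 difference of -4.35 ± 0.37 (edgeR adjusted p = 2.25e-11). Col16a1, also fibril-associated, was lower in duodenum at -1.55 ± 0.44 (edgeR adjusted p = 0.00260), and Col20a1 was higher by 1.11 ± 0.30 (edgeR adjusted p = 0.00135). The membrane collagen Col13a1 was lower in duodenum at -3.001 ± 0.41, and the membrane collagen Col23a1 was higher by 2.11 ± 0.43 (edgeR adjusted p = 2.04e-07 and 7.24e-05). Col12a1 and Col9a3 did not pass.

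Of the 5 genes higher in duodenum, Col7a1 had a log2 difference of 2.39 ± 0.34 (edgeR adjusted p = 2.72e-07). The widest gap was that of Col6a4 (ENSMUSG00000032572, chromosome 9), a mouse chain gene of collagen VI. It had 39, 105, 106, 260 and 71 counts in duodenum control libraries and 0, 1, 0, 0 and 0 in liver control libraries. Scaled by library totals, the ratio of the summed counts, 581 against 1, was 642, with an exact 95% counting interval of 115 to 25398. Over all diets it was listed at 0 in 13 of 15 liver libraries, and the other 2 were liver control 2 with 1 count and liver dextrose 5 with 4. Col6a6, also a collagen VI chain, had 3 to 19 counts in each liver library and at most 1 in any duodenum library. Col6a1 and Col6a2, the common chains, did not pass between tissues (log2 differences of -0.52 ± 0.52 and -0.14 ± 0.54).

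The level of a chain relative to its partner in the same molecule was compared between the tissues. The size of a ratio rests on the implied gene lengths, such as 2513 bases for Col6a1 and 4505 for Col6a2. Its log2 difference between tissues does not. In control libraries Col1a1 to Col1a2 had a mean ratio of 1.24 ± 0.186 (SD, n = 5) in duodenum and 0.909 ± 0.321 in liver. Col5a1 to Col5a2 was 0.856 ± 0.363 in duodenum and 1.75 ± 0.581 in liver, and Col6a1 to Col6a2 was 1.78 ± 0.216 and 2.36 ± 0.220. Exact two-sided permutation tests of the log2 ratios gave p = 0.0714, 0.0317 and 0.0159 for these, with 0.0476 for Col4a1 to Col4a2 and 0.0556 for Col6a3 to Col6a1. None of the 5 passed after Benjamini-Hochberg adjustment (adjusted p from 0.0694 to 0.0714 by the exact permutation test, whose smallest p is 0.00794).

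In the fructose libraries, which share no library with the control ones, 4 of the 5 ratios passed. There the duodenum minus liver log2 difference was 0.56 for Col1a1 to Col1a2 and -1.72 for Col5a1 to Col5a2 (adjusted p = 0.0198 each, exact permutation test), with no overlap between tissues in either. For Col4a1 to Col4a2 it was -0.23 and for Col6a1 to Col6a2 -0.46 (adjusted p = 0.0298 each, exact permutation test). In the dextrose libraries Col6a1 to Col6a2 passed, at -0.47 (adjusted p = 0.0397, exact permutation test). All 5 differences had the same sign on all 3 diets.

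Genes that make, trim, bind or break down collagen were read from 7 lists, and in 4 of them most tested genes were lower in duodenum, where 37.3% of all genes passed in each direction. These list counts used all libraries and were not recomputed without liver control 2 or the others that stand apart. Of 20 tested genes of collagen synthesis and assembly 14 were lower in duodenum and 2 higher, with a median log2 difference of -1.35. P3h1, a prolyl 3-hydroxylase, had a log2 difference of -5.27 ± 0.25, and Plod1, a lysyl hydroxylase, had -1.88 ± 0.15. Of 13 tested genes of procollagen trimming and cross-linking 10 were lower and 2 higher, the latter being Mep1a and Mep1b, the meprins of the intestinal brush border (log2 differences of 11.80 and 11.58). Among the 10, Lox was at 1.17 FPKM in liver control 2, against 0 to 0.0808 in the other liver controls and 0 to 0.123 in duodenum controls. Serpinh1, a synthesis gene lower in duodenum, was also raised in liver control 2, at 18.6 FPKM against 4.85 to 7.92 in the other liver controls. Tmem38b, another such synthesis gene, was not, at 53.7 FPKM against 41.3 to 53.9. Of 18 other fibre proteins 11 were lower and 2 higher. Of 19 other basement membrane proteins 12 were lower and 6 higher, among the latter Lamb3 (log2 difference of 1.91), a laminin beta chain of epithelia. Of 12 tested genes of collagen breakdown and its inhibitors 6 were lower, among them the inhibitors Timp2 and Timp3, and 3 higher. Collagen receptors split 3 and 3 of 9, and TGF-beta genes 4 lower and 6 higher of 14.

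Promoters are shown for the members on which the diet and library results turn: Col7a1 and Col15a1, which passed a diet test, Col5a3, which did so under some settings, and Col1a2, a fibrillar gene high in 2 liver libraries. Each is the 250 bases before the gene's start, 5′ to 3′ on the gene's strand, from RefSeq on GRCm38.p6. The TATA box core TATAAA, the CCAAT box, the GC box core GGGCGG, the E-box CACGTG and the AP-1 sequence TGANTCA were searched on both strands, with no base in more than 1 match, and capitals mark the CCAAT and GGGCGG matches found here.
Col7a1: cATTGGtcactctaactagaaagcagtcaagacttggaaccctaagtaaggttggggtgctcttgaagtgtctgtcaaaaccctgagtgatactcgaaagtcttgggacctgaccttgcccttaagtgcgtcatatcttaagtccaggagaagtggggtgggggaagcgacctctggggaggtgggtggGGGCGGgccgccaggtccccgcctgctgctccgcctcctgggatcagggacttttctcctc
Col15a1: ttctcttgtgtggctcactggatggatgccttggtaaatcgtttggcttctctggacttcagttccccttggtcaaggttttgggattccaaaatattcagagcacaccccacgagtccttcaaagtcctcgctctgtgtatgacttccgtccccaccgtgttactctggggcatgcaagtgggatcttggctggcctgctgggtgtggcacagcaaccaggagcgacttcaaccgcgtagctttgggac
Col5a3: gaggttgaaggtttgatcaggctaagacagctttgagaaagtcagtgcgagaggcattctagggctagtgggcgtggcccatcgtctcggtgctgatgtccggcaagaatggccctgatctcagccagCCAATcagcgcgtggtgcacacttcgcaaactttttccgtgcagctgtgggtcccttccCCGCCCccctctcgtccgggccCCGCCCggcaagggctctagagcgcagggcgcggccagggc
Col1a2: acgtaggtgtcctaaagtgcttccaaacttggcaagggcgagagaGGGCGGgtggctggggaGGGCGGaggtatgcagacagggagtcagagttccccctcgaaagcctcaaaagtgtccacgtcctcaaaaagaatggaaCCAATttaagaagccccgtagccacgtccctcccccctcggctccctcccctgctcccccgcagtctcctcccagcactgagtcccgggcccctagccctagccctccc
These windows lie at chr9:108953336-108953585 on the plus strand for Col7a1, chr4:47207762-47208011 plus for Col15a1, chr9:20815068-20815317 minus for Col5a3 and chr6:4505368-4505617 plus for Col1a2. Col7a1, Col5a3 and Col1a2 hold CCAAT and GGGCGG in one orientation or the other, and the Col15a1 window holds none of the 5 motifs.

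RefSeq entries were matched for 29 of the 35 genes, with 31 windows in all. GGGCGG was in 21 of the 31 collagen windows and in 32.7% of all 32851 promoter windows of that length. CCAAT was in 10 of 31 and in 33.8% of all windows, and TATAAA in 3 of 31 and 12.4%. CACGTG was in none of the 31 and in 6.02% of all windows, and TGANTCA in 1 and 6.75%. A match is a string of letters and not evidence of a bound site, and the lack of one says only that the letters are not in the window.

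In liver, 1 collagen gene rose on fructose. Col15a1 (ENSMUSG00000028339, chromosome 4), the multiplexin of basement membrane zones, stood at 2.79, 4.03, 2.09, 2.91 and 4.83 FPKM on the control diet and at 7.43, 8.59, 8.74, 8.07 and 6.12 FPKM on fructose. On dextrose it stood at 3.63, 3.36, 3.23, 3.33 and 5.25 FPKM. Every fructose library was above all 10 others, while dextrose and control overlapped. Against control the log2 fold change was 1.28 ± 0.18 (SE, edgeR adjusted p = 0.00896), and against dextrose it was 1.12 ± 0.17 (edgeR adjusted p = 0.0190). Dextrose against control gave 0.15 ± 0.17 (edgeR adjusted p = 0.949).

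Col15a1 was the only one of 23 collagen genes tested in liver that passed, beside 0.258% of all genes for fructose against control and 0.0759% for fructose against dextrose. The first result held in all 15 fits that left out 1 library. The second was lost in 8 of 15 such fits, those without fructose or dextrose 1, 2, 3 or 4 (edgeR adjusted p up to 0.0885), with limma on log2(FPKM + 1) (adjusted p = 0.0616) and with the library number as a block (adjusted p = 0.0822). Without liver control 2 and dextrose 5 the log2 fold changes were 1.27 and 1.21, both past the threshold. Summed endothelial markers ran from 79.9 to 96.9 FPKM in fructose livers and from 72.9 to 102 FPKM in control livers. Stellate markers ran from 73.1 to 78.2 FPKM on fructose, from 56.2 to 107 on control and from 61.9 to 128 on dextrose. The highest control sum of both lists was in liver control 2. The other control livers held 56.2, 58.0, 61.4 and 79.2 FPKM of stellate markers, and dextrose livers other than dextrose 5 held 61.9 to 73.6. All 8 genes of each list were measured and none was at 0 throughout. Their part in the Col15a1 result was not tested.

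Col5a3 (ENSMUSG00000004098, chromosome 9) had the second largest positive fold change against control in the fructose livers among the 23 genes tested, while against dextrose Col7a1 and Col27a1 were also above it, neither past the threshold. It ran from 16.2 to 22.1 FPKM on fructose, with 16.2, 16.8, 16.7, 22.1 and 16.5 in the 5 libraries, and from 7.37 to 13.9 FPKM on control and 8.17 to 13.8 FPKM on dextrose. The fructose libraries did not overlap those of either other diet. The log2 fold changes were 0.74 ± 0.21 against control (edgeR adjusted p = 0.171) and 0.68 ± 0.21 against dextrose (edgeR adjusted p = 0.293), so neither passed. Against control, DESeq2 gave 0.74 with an adjusted p of 0.0490. Without liver control 2 and dextrose 5, where Col5a3 was lowest of all liver libraries, edgeR gave 0.58 (adjusted p = 0.0273) and 0.56 (adjusted p = 0.0303).

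**Figure D2:**
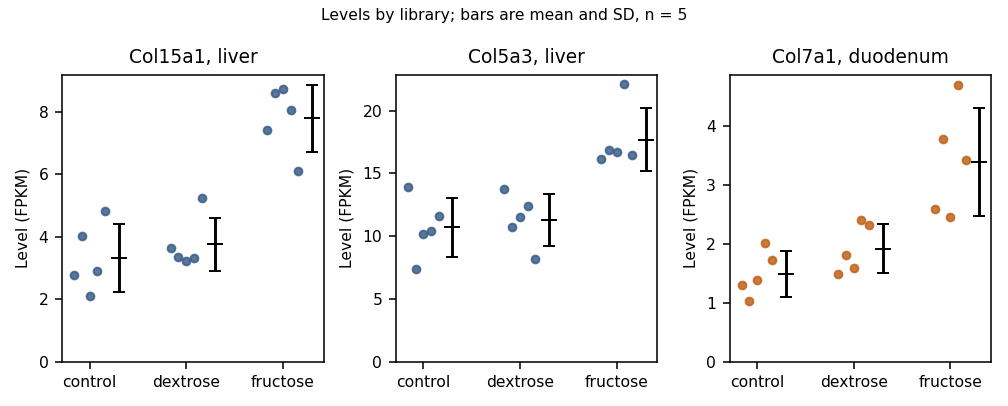
FPKM of Col15a1 and Col5a3 in liver and of Col7a1 in duodenum by diet, from 0. Each point is a library, with the mean and SD (n = 5) beside it; in all 3 panels every fructose library lies above every control and dextrose library.

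In duodenum, Col7a1 (ENSMUSG00000025650, chromosome 9), the gene of anchoring fibrils, rose on fructose and no other collagen gene passed. It stood at 1.29, 1.03, 1.38, 2.02 and 1.73 FPKM on the control diet, at 1.49, 1.80, 1.59, 2.40 and 2.31 on dextrose and at 2.60, 3.77, 2.46, 4.68 and 3.42 on fructose. The lowest fructose library, at 2.46 FPKM, was just above the highest dextrose library, at 2.40 FPKM. Against control the log2 fold change was 1.27 ± 0.22 (SE, edgeR adjusted p = 0.00171), and it passed in all 15 fits without 1 library. Against dextrose it was 0.88 ± 0.22 (edgeR adjusted p = 0.0296), and 6 of 15 such fits lost it, those without fructose 2, 4 or 5 or dextrose 1, 2 or 3 (edgeR adjusted p up to 0.0848).

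The 1 of 28 collagen genes that passed stands beside 6.71% of all genes for fructose against control and 3.64% for fructose against dextrose in duodenum, so as a group the collagens were at or under the background. Below the threshold, Col9a3 had a log2 fold change of 0.87 ± 0.34 and Col11a2 of 0.79 ± 0.34 against control (edgeR adjusted p = 0.161 and 0.198), both genes of cartilage collagens. Col20a1 had -0.43 ± 0.18 against dextrose (edgeR adjusted p = 0.229). These 3 were picked with their values in view. The summed mesothelial markers, all 6 measured and none at 0 throughout, ran from 6.87 to 7.75 FPKM on fructose, from 4.62 to 8.95 FPKM on dextrose and from 2.55 to 5.01 FPKM on control. Of the 4 tested, 1 was higher on fructose than on control, and the list's median log2 fold change was -0.12 against control and -0.67 against dextrose. Summed enterocyte markers ran from 21807 to 26909 FPKM on fructose, from 24410 to 29396 FPKM on dextrose and from 29678 to 32200 FPKM on control, with 1 of 8 higher and 3 lower on fructose than on control. The part of either in the Col7a1 result was not tested.

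No collagen gene passed the threshold for dextrose against control in either tissue. In duodenum 0 of 28 passed, with 0 also at an unadjusted p under 0.05, beside 2.25% of all genes. In liver 0 of 23 passed, with 0 unadjusted, beside 0% of all genes by edgeR, of which 554 had an unadjusted p under 0.05, and DESeq2 called 1 gene and no collagen.

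Whether the fructose effect differed between tissues was tested by the interaction in a fit of all 30 libraries. None of 28 collagen genes passed, with 1 at an unadjusted p under 0.05, beside 1.08% of all genes. That gene was Col15a1, whose fructose log2 fold change differed between duodenum and liver by -0.99 ± 0.37 (edgeR adjusted p = 0.222). For Col7a1 the difference was 0.67 ± 0.46 (edgeR adjusted p = 0.580), while limma on log2(FPKM + 1) passed it (0.67, adjusted p = 0.0320) and Col5a3. In duodenum itself Col15a1 had 0.27 ± 0.33, and in liver Col7a1 had 0.62 ± 0.42, where its highest level was 0.488 FPKM. For dextrose 0 of 28 passed, with 0 unadjusted, beside 0.118% of all genes.

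**Figure D3:**
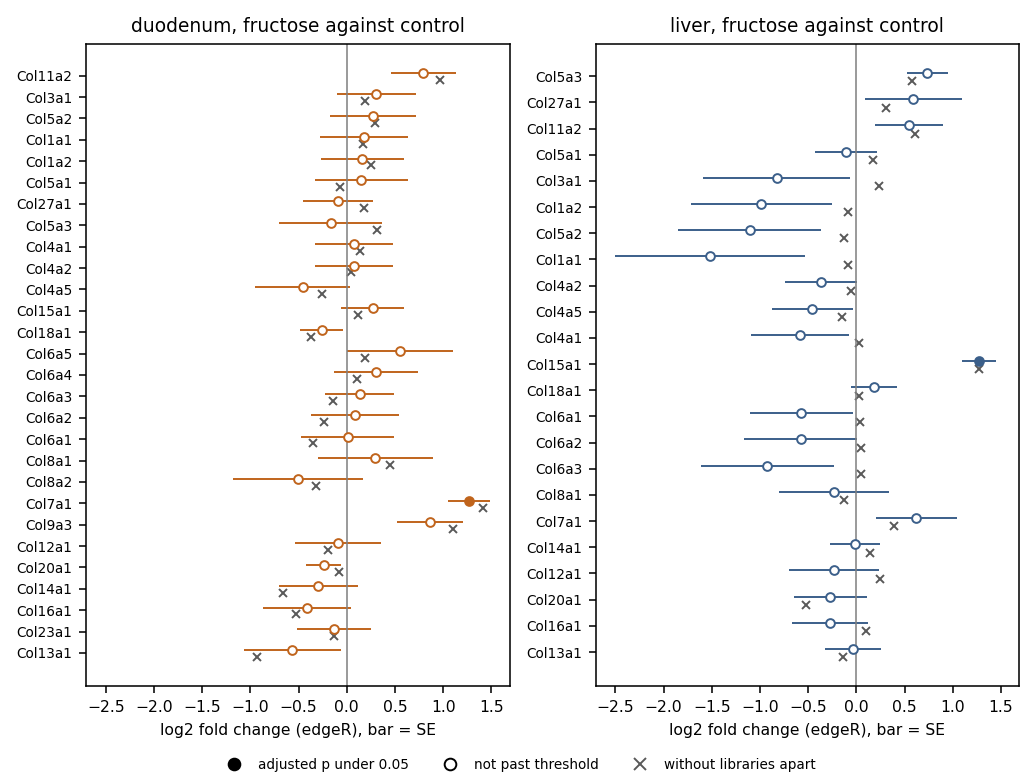
Log2 fold change, fructose against control, of each tested collagen gene in duodenum (28 genes) and liver (23 genes), grouped by class, with bars of 1 SE. Filled points passed an adjusted p of 0.05 (Col7a1 in duodenum, Col15a1 in liver) and crosses are the values without the libraries that stand apart; in liver the crosses of Col1a1, Col1a2, Col3a1 and Col5a2 lie closer to 0 than their points, to the right of 0 for Col3a1.

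Among the remaining liver members, most were higher in 2 libraries than in the others. Liver control 2 and dextrose 5 were the highest 2 of 15 for 14 of the 23 tested genes, comprising 5 of 8 fibrillar, 3 of 3 type IV, 3 of 3 type VI and 3 of 4 fibril-associated genes. Col1a1 stood at 46.4 and 69.6 FPKM there, against 1.99 to 5.92 in the other control livers and 2.21 to 5.94 in the other dextrose livers. Col3a1 stood at 87.7 and 118 FPKM, against 8.31 to 14.6 and 8.48 to 12.6. These are 13.1 and 19.4 times the median of the other 4 libraries for Col1a1, and 9.06 and 11.04 times for Col3a1. The smallest excess among the 14 was 2.17 and 2.80 times, for Col14a1.

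The other 9 genes were not the highest in both libraries. Col8a1 was at 2.15 and 5.84 times and Col11a2 at 1.95 and 2.11 times the median of the other 4, and Col15a1 at 1.41 and 1.57 times. Col18a1 was at 211 and 251 FPKM, 0.665 and 0.720 times. Col13a1 was at 0.871 and 0.384 times, Col7a1 at 0.464 and 0.893 times and Col20a1 at 0.290 and 0.964 times. Col5a3 and Col27a1 were lowest in these 2 libraries, Col27a1 at 1.39 and 1.87 FPKM against 5.89 to 11.6 and 7.65 to 10.1. The 3 genes of collagen V thus differed, with Col5a2 at 8.32 and 10.2 times the others' median, Col5a1 at 3.09 and 3.53 times and Col5a3 at 0.669 and 0.685 times. The ratio of Col5a1 to Col5a2 was 0.726 and 0.727 in these libraries, against 1.63 to 5.11 in the other 13 liver libraries. The ratio of Col1a1 to Col1a2 was 1.44 and 1.61, against 0.632 to 1.11.

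**Figure D4:**
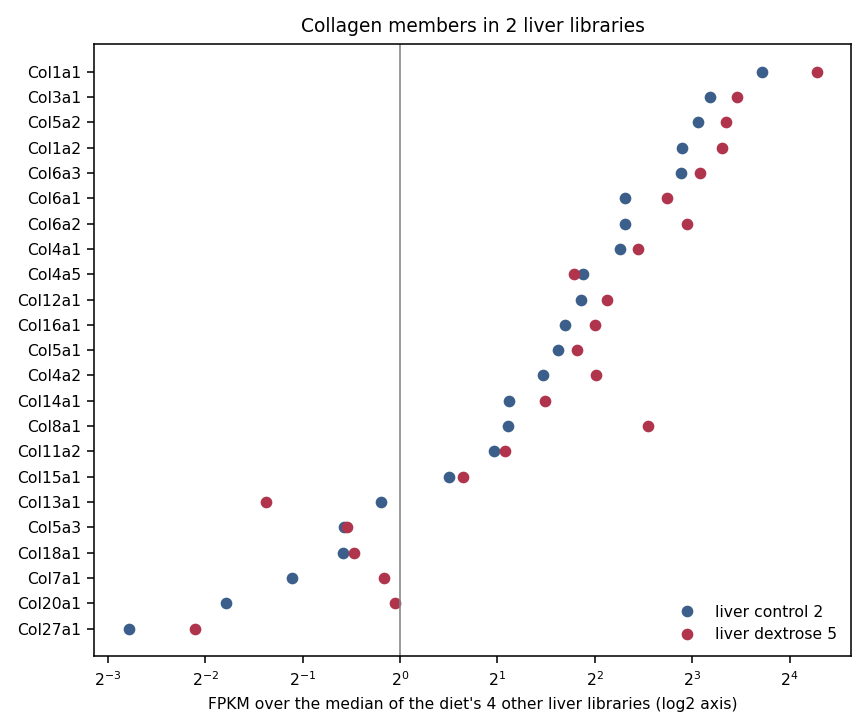
FPKM of each of 23 collagen genes in liver control 2 and liver dextrose 5, divided by the median of the other 4 libraries of the same diet, on a log2 axis. Col1a1 lies at 13.1 and 19.4 times, and Col5a3, Col7a1, Col13a1, Col18a1, Col20a1 and Col27a1 lie under 1 in both libraries.

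Markers and partner genes moved in the same libraries. Summed fibroblast markers were 180 and 220 FPKM against 52.7 to 69.1 in the other 13 livers. Of that sum the single gene Dcn held 131 and 152 FPKM, against 42.5 to 59.7 in the other livers. Macrophage markers were at 357 and 514 FPKM against 139 to 228, and cholangiocyte markers at 62.1 and 96.9 against 21.8 to 40.2. All 8, 6 and 6 genes of these lists were measured, with none at 0 in every library. Stellate sums were also highest there, at 107 and 128 FPKM against 56.2 to 79.2. The same held for smooth muscle, at 43.5 and 32.8 against 10.4 to 26.6, and for endothelial and mesothelial sums. Hepatocyte, enterocyte and enteric neuron sums lay within the range of the other livers. Lox, which cross-links collagen, was at 1.17 and 1.12 FPKM against 0 to 0.200, and the inhibitor Timp1 at 5.32 and 3.62 against 0 to 0.334. Serpinh1, the collagen chaperone, was at 18.6 and 22.8 FPKM against 3.69 to 8.49. These 3 genes were picked with their values in view. Summed acinar markers were 278 and 1309 FPKM, with 512 in liver control 5. The part of any of these in the collagen excess was not tested.

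With all libraries, the members' median log2 fold change for fructose against control in liver was -0.27, with 6 of 23 above 0, beside -0.03 for all genes. Without the 2 libraries it was 0.05, with 15 of 23 above 0. For fructose against dextrose the median was -0.52 with them and 0.13 without. For the fructose effect in duodenum minus that in liver it was 0.51 with all libraries and -0.03 without those that stand apart. Of the single genes, Col15a1 alone had passed in any of these 3 comparisons with all libraries.

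In duodenum many members were high or low in the same libraries within a diet. Fructose 4 was lowest of 15 for 13 of 28 tested genes and dextrose 5 highest for 14. Col1a1 ran from 1.46 FPKM in fructose 4 to 13.0 in dextrose 5, and Col3a1 from 4.12 to 21.7 in the same libraries. Summed smooth muscle markers were lowest in control 4 (80.0 FPKM) and fructose 4 (80.3) and highest in dextrose 5 (505). Stellate sums were also low in control 4 (36.2 FPKM) and fructose 4 (33.4), with 165 in dextrose 5. Macrophage sums were lowest in fructose 4 (12.8 FPKM) and highest in control 4 (89.9), with 50.6 in dextrose 5. Endothelial sums were 2.62 FPKM in fructose 4, 13.4 in control 4 and 9.19 in dextrose 5. The part of any of these in the collagen levels was not tested. Control 4 was not on the low side for the collagens. It was lowest of 15 for 1 of the 28 tested genes and highest for 4, among them Col15a1 (2.13 FPKM) and Col13a1 (0.960 FPKM). Col8a2, a network-forming chain, had 1 count in control 4, 6 in fructose 4 and 51 in dextrose 5. Col7a1 went against the pattern, with its highest value, 4.68 FPKM, in fructose 4.

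**Figure D5:**
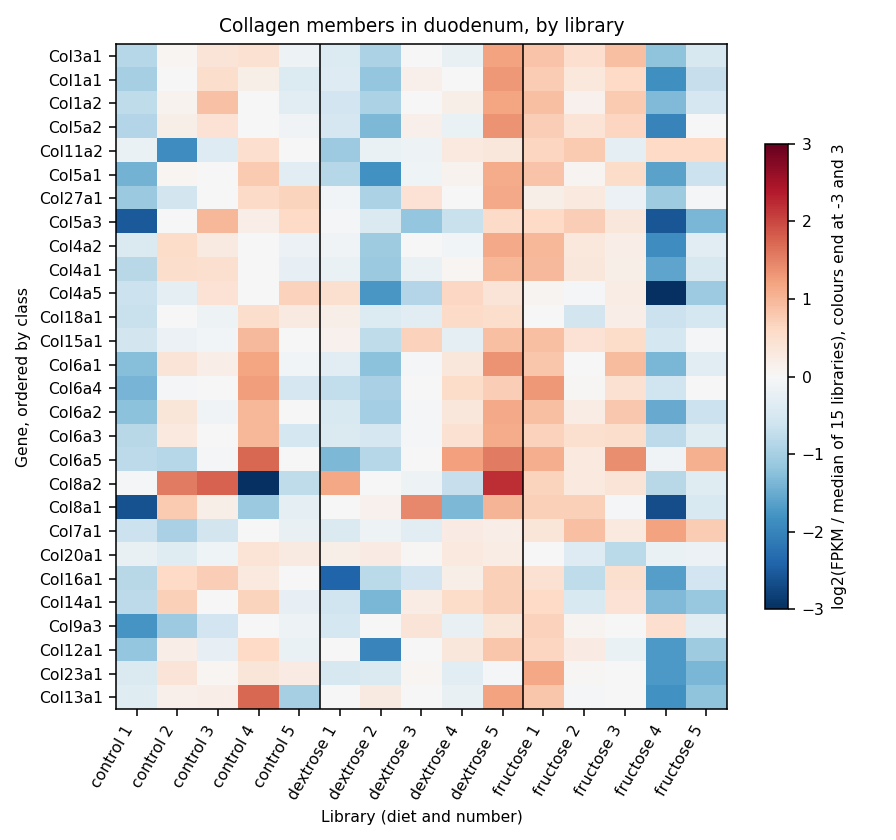
Log2 of FPKM over the gene's median across 15 duodenum libraries, for the 28 tested collagen genes by class; columns are libraries by diet, red is above and blue below the median. The fructose 4 column is blue and the dextrose 5 column red for most fibrillar, type IV and type VI genes, while Col7a1 is red in fructose 4.

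Some partner genes changed with diet in duodenum, where 6.71% of all genes passed for fructose and 2.25% for dextrose against control. P4ha1, the catalytic chain of prolyl 4-hydroxylase, stood at 5.13, 5.82, 4.15, 3.57 and 5.08 FPKM on fructose, at 2.03, 1.56, 1.94, 1.97 and 1.89 on control and at 1.64, 0.855, 2.68, 1.29 and 3.18 on dextrose. Fructose did not overlap either diet, and the log2 fold changes were 1.40 ± 0.25 and 1.37 ± 0.25 (edgeR adjusted p = 0.00192 and 0.00380). With Tmem38b, an endoplasmic reticulum channel, it made 2 of 19 synthesis genes that rose against control, and none fell.

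Among other basement membrane proteins, Smoc1 rose on fructose against control, by 1.25 ± 0.36 on the log2 scale (edgeR adjusted p = 0.0425). Lamb3 fell on dextrose against control, with a log2 fold change of -0.90 ± 0.15 (edgeR adjusted p = 0.00295). It ran from 4.28 to 7.21 FPKM on dextrose, from 9.42 to 13.6 FPKM on control and from 8.69 to 12.8 FPKM on fructose. Only dextrose stood apart, and fructose against dextrose gave 0.93 ± 0.15 (edgeR adjusted p = 0.00137).

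Among 9 collagen receptors, Itgb1, the beta chain of the collagen-binding integrins, rose on fructose against control by 0.39 ± 0.09, and Adgrg1, a receptor of collagen III, fell, at -0.49 ± 0.13 (edgeR adjusted p = 0.0145 and 0.0232). Of 8 trimming and cross-linking genes, Mep1b fell, at -0.52 ± 0.13 (edgeR adjusted p = 0.0188). Tgfbi, a collagen-binding protein induced by TGF-beta, rose on dextrose by 0.63 ± 0.15 (edgeR adjusted p = 0.0327), as 1 of 12 TGF-beta genes. No companion gene passed in liver for any diet comparison.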

How the data were processed

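Poly-A RNA of duodenum and liver was sequenced in 30 libraries. Per the submitters' processing notes, TopHat2 2.0.12, Bowtie2 2.2.3, HTSeq 0.6.1 and DESeq 1.18.0 were used; genome build, annotation and use of strand are not given in the sources used here. The authors deposited a raw read count and an FPKM per gene and library. With gene length derived from these same values, 100% of FPKM values equal count divided by length and library total within 0.001. This shows only that the implied length of a gene is the same in all libraries. Reads can fall on more than 1 gene, so counts near overlapping genes may be inexact.

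Counts were tested with edgeR 4.0.16 (R 4.3.3): TMM scaling, filterByExpr by group, robust quasi-likelihood F test, two-sided, Benjamini-Hochberg adjustment over all genes tested, threshold 0.05. The SE given with an edgeR fold change was derived from that test, as the absolute log2 fold change divided by the square root of F. Diets were compared within a tissue over 15 libraries, and the tissues and the differences between diet effects in a fit of all 30. Chain ratios of FPKM were compared by exact permutation in Python 3.11.15 (scipy 1.17.1). The code was tested on simulated data. Alternatives were RLE and upper-quartile factors, no count filter, DESeq2 1.42.0, limma 3.58.1 on log2(FPKM + 1), the library number as a block, each library left out, and the 5 libraries that stand apart left out. For members below the threshold and for members' medians these were added after seeing the data. Counts by class and over companion and marker lists came from the main edgeR fits only.

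Genes named are those past a diet threshold, the 3 of highest mean FPKM per class and tissue, the ratio partners, and at most 4 genes per companion list, by smallest p; a companion gene that this rule also names is not reported here. The members and lists were chosen with earlier results of these data known. Members without a RefSeq promoter entry were Col1a1, Col4a3, Col5a2, Col9a3, Col12a1 and Col14a1. Totals of 14530137 to 19850935 counts limit the precision of members with few counts, and the counting interval given covers counting error only.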

Additional observations from a re-analysis of the deposited data

Results flagged for a closer look

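A library was listed when its FPKM lay far from the other 4 of its group by Dixon's test (critical value 0.71), which chance alone passes in about 1 of 20 groups; 31 of 153 sets of a gene and a group did so. Of these, 14 were in liver dextrose 5 and 10 in liver control 2, always as the highest library of the group.

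In liver dextrose 5 the values were 118 FPKM for Col3a1, 69.6 for Col1a1, 43.2 for Col1a2, 36.6 for Col4a1, 26.5 for Col4a2, 17.9 for Col6a1, 8.90 for Col6a2, 8.53 for Col6a3 and 7.58 for Col5a2. They were 5.51 FPKM for Col5a1, 5.25 for Col15a1, 4.12 for Col16a1, 1.32 for Col12a1 and 1.26 for Col4a5. In liver control 2 they were 87.7 FPKM for Col3a1, 46.4 for Col1a1, 37.1 for Col4a1, 32.2 for Col1a2, 13.3 for Col6a1, 6.76 for Col6a3, 6.26 for Col5a2, 5.71 for Col6a2, 4.32 for Col16a1 and 0.721 for Col12a1.

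The other 7 lay in 4 libraries. Duodenum control 4 was highest of its group for Col15a1 (2.13 FPKM), Col13a1 (0.960 FPKM) and Col6a5 (0.176 FPKM), and duodenum dextrose 5 for Col3a1 (21.7 FPKM) and Col13a1 (0.670 FPKM). Liver fructose 4 was highest for Col5a3 (22.1 FPKM), and duodenum fructose 3 was lowest for Col11a2 (0.593 FPKM).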

How the results depend on the processing

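No collagen gene past a threshold turned direction under the alternatives tried, but the members' median did without the libraries that stand apart. It turned from -0.27 to 0.05 for fructose against control, from -0.52 to 0.13 for fructose against dextrose and from 0.15 to -0.05 for dextrose against control in liver, from 0.08 to -0.07 for fructose against dextrose in duodenum, and from 0.51 to -0.03 and -0.09 to 0.10 for the fructose and dextrose effects in duodenum against liver. The count of collagen genes past the threshold for fructose against control in liver was 2 with DESeq2 and 2 without the libraries that stand apart, in place of 1. For fructose against dextrose in liver it was 0 with limma, 0 with the replicate block and 2 without those libraries, and leaving out 1 library gave 0 to 1; in duodenum that range was also 0 to 1. The fructose effect in duodenum against liver had 2 genes with limma, in place of 0. Between tissues the count ran from 16 to 22 when 1 library was left out. There, upper-quartile factors moved the median log2 difference of all genes by -0.11 and limma gave it as 0.21.

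The log2 chain ratios differed by 0.56 (Col1a1 to Col1a2), -0.23 (Col4a1 to Col4a2), -0.46 (Col6a1 to Col6a2) and -1.72 (Col5a1 to Col5a2) in fructose libraries, and by -0.47 (Col6a1 to Col6a2) in dextrose libraries, each past the threshold. Leaving out 1 control library gave 0.39 to 0.69, -0.44 to -0.23, -0.47 to -0.37 and -1.31 to -0.91 in the same order. Col4a1 to Col4a2 and Col6a1 to Col6a2 passed without duodenum control 3, and the other 2 without liver control 2.

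Same-numbered libraries correlated above 0.1 in at most 3 of 5 pairs for any 2 groups compared. Between duodenum and liver, the same number was the best match for 4 of 5 fructose, 2 of 5 dextrose and 0 of 5 control libraries. The labels do not say that the numbers pair libraries, and this check does not settle it. The block left 0 collagen genes for fructose against dextrose in liver and changed no other diet count. Over all genes, the 932 past the threshold in duodenum for fructose against control became 329 without the libraries that stand apart, 312 for dextrose became 163 and 506 for fructose against dextrose became 274. In liver 34 became 225 and 10 became 250, and with DESeq2 they became 232 and 143. DESeq2 also gave 520 for dextrose and 826 for fructose against dextrose in duodenum. For the fructose effect between tissues 165 became 385 with DESeq2 and 368 with limma. With the block the liver counts became 4 and 0, and without the count filter the latter became 16. The cause of these shifts was not tested. Members with few counts were limited by depth.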
